A study of Homo sapiens with 5 samples.

Results

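Processed pseudogenes of abundant housekeeping genes were followed as a group of 97 rows among 24497 gene rows of a count table from HEK293 cells. They were chosen by name and by level. Their symbols join the symbol of a housekeeping gene, such as PPIA or GAPDH, to the letter P and a number, and their raw counts over the 5 libraries sum to at least 5. Of 394 rows with such names, 297 fell below that total, 98 of them with no count at all. The counts therefore selected the members, and their presence above the threshold is no result. Just inside it lay 13 rows with a total of 5, among them BTF3P6, CKS1BP6 and EEF1A1P1, and just outside it 13 rows with a total of 4, among them BTF3P13, BTF3P4 and FTH1P15.

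HEK293 is an established cell line that was made from human embryonic kidney. Both groups are the same line, grown in DMEM with glutamine and fetal calf serum, with no genotype, treatment or time named, so the groups differ by label only in batch: 2 libraries in batch A and 3 in batch B. Each library held the product of 100 cells out of a lysate of 1000, reverse transcribed from oligo-dT, extended at the 5′ end by template switching, amplified by 18 cycles of PCR and selected for 5′ ends. Libraries are named by the number that ends their column (2 and 3 in batch A, 1 to 3 in batch B), which is not the replicate number of the labels. The batch A libraries held 686883 and 803168 gene counts, and those of batch B 373687, 575472 and 685181. Counts on the ERCC spike-ins, synthetic RNAs that the protocol adds at lysis, were 1785 and 2127 in batch A but 13, 1 and 19 in batch B, and whether this bears on the batch differences was not tested. The labels do not say that libraries came from separate cultures. Every p-value thus weighs a batch difference only against the scatter of these 5 libraries within their batches, and that scatter may be technical. Of the 9 genes listed for the line, VIM had 1473 counts in all, while PAX2, a kidney developmental regulator, had 8. Of 5 genes listed for other cell types with a row, CD3E and ALB had 0 counts, DCN had 1, APOA1 had 12 and COL1A1 had 34, and their part in the results was not tested.

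A processed pseudogene arises when a spliced mRNA is reverse transcribed by the machinery of LINE-1 elements and pasted back into the genome. The copy has no introns and usually lacks the promoter of its parent, and genes that are highly transcribed in the germ line have left the most copies. Most copies have lost an open reading frame, some are transcribed from a neighbouring promoter, and a few, called retrogenes, still encode a protein. Because a copy resembles its parent, a short read may match both, and how reads that match several places were counted is not given in the sources used here. Each pseudogene row is therefore reported as uncertain, and what share of its reads came from the parent was not tested.

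The annotation bore the name of the group for most rows. GENCODE release 29, made for a later build than the count table and used here by symbol only, lists 96 of the 97 members, 88 as processed pseudogenes and 6 as transcribed processed pseudogenes. HNRNPA1P48 is listed there as a protein-coding gene and tagged as a retrogene, so by that listing it is no pseudogene. Its gene spans 93697 bases, against 1572 for its longest annotated transcript. TUBBP5 is listed as a transcribed unprocessed pseudogene, that is, a copy made by duplication of DNA, and only 17.1% of its transcript aligned to TUBB, at 81.5% identity, so that the name of the group does not describe it. NACAP1 had no match. Among all 96, the aligned stretch was 81.5% to 99.7% identical to the principal mRNA of the parent, with a median of 95.2%, and covered a median of 100% of the parent's coding sequence. In 68 members the alignment began within 3 bases of the parent's start codon, in 7 farther upstream and in 21 farther downstream. As annotated, most copies thus begin at the start codon, and leave out the untranslated 5′ end with which the parent's mRNA begins. Whether the copies in the genome reach beyond their annotated bounds was not tested.

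The sequences of PPIAP22 and GAPDHP1, which are among the 3 members that differed between the batches, show how much of each copy can be told from its parent. For each, the stretch of 60 coding bases with the most differences is printed above the same stretch of its parent, from the GENCODE 29 transcripts, with capitals marking bases that differ from the parent. Positions count from 1 at the first base of the parent's start codon. PPIAP22, on chromosome 21, had 2 substitutions in 498 aligned bases, and both lie in this stretch, coding bases 268 to 327 of PPIA.
PPIAP22: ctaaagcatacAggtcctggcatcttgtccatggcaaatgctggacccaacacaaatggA
PPIA: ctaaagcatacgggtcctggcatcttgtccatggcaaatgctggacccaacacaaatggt

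GAPDHP1, on the X chromosome, had 38 substitutions over 1008 aligned columns, and its stretch covers coding bases 863 to 922 of GAPDH.
GAPDHP1: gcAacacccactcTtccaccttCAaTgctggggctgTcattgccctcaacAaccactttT
GAPDH: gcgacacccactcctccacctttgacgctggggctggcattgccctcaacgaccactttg

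PPIAP22 thus differs from its parent at 2 of the 60 bases even where it differs most, against 8 for GAPDHP1. HNRNPA1P48, on chromosome 16, the other member called, had 7 substitutions over 1025 aligned bases, and the alignment took in 65.2% of its transcript of 1572 bases and began 62 bases before the start codon of HNRNPA1. The longest stretch without a difference was 278 bases in PPIAP22, 373 in HNRNPA1P48 and 93 in GAPDHP1. No gene overlapped any of the 3 in the annotation.

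The pseudogene rows were thinly covered, and a few of them carried most of the counts. Together the 97 rows held 3573 counts, of which 2163 (60.5%) fell on 7 rows of 100 or more. The median row had 10 counts in all, 47 rows had 5 to 9, and 48 rows had a count in every library. A row with 0 counts may have up to 3.74 CPM (counts scaled to a fixed gene count total per library) in the deepest and 8.03 CPM in the shallowest library, taking 3 counts as the limit for counting error alone. Rows with a count numbered 83 and 91 in the libraries of batch A, and 67, 84 and 84 in those of batch B, lowest in the shallowest library and highest in the deepest. PPIAP22 led with 943 counts, followed by PTMAP5 with 357, HMGB1P5 with 239, NPM1P27 with 193, EEF1A1P5 with 164, GAPDHP1 with 150 and HNRNPA1P48 with 117. Per kilobase of annotated transcript the order changed little at the top, with PPIAP22 at 1894 counts, PTMAP5 at 307.2, HMGB1P5 at 242.6 and NPM1P27 at 232.5. COX7CP1 and COX6A1P2, which are short, came next on that scale at 218.8 and 193.9. Because the libraries were selected for 5′ ends, counts need not grow with transcript length, so that scale may favour short rows.

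**Figure D1:**
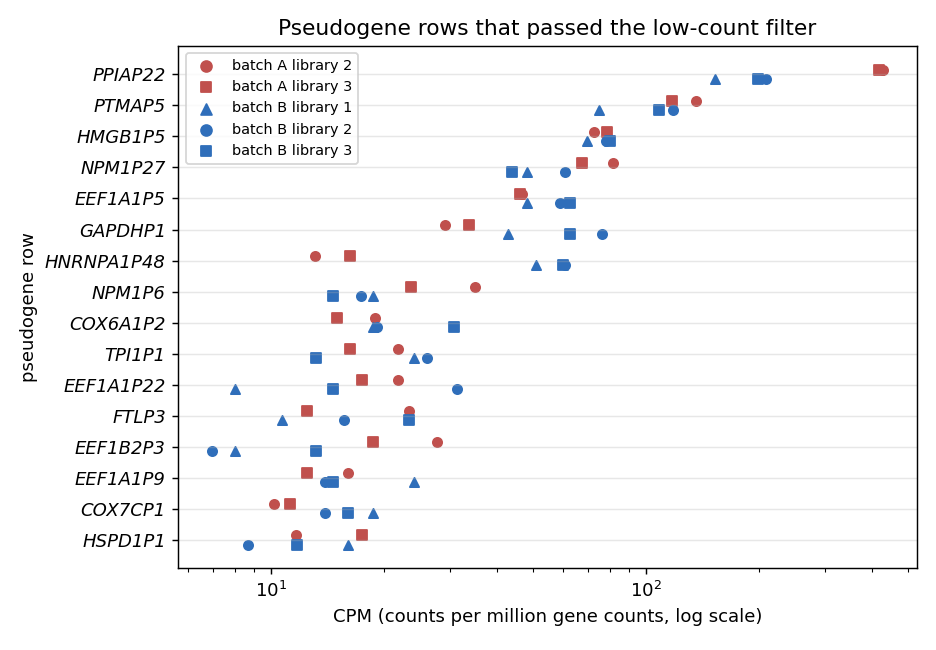
CPM of the 16 pseudogene rows that passed the low-count filter, on a log axis, with 1 point per library (red, batch A; blue, batch B). All batch B libraries lie below batch A for PPIAP22 and above it for HNRNPA1P48 and GAPDHP1, and for 8 of the 16 rows the batches overlap.

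Rows with more counts held less sequence of their own. Each annotated transcript was split into all its words of 50 bases. The share of words that occurs in no annotated transcript of another gene was taken as sequence of the row's own. Words counted alike along the whole transcript, whereas the libraries were selected for 5′ ends. The share may therefore differ in the stretch that the reads cover, which was not tested. The median share was 97.4% over 97 matched rows with no count, 94.7% over 199 rows with 1 to 4 counts, 90.0% over 47 members with 5 to 9, 72.6% over 36 matched members with 10 to 49 and 50.8% over 13 members with 50 or more. The median identity to the parent moved the other way, from 89.3% through 90.8%, 93.5% and 96.4% to 98.1%. Across all 392 matched rows, which share libraries, depth and in part their parents, Spearman's rho of total count was -0.45 with the share of own sequence and 0.52 with identity. PPIAP22 (11.1%) and EEF1A1P5 (10.4%) had little sequence of their own, while PTMAP5 had 66.8% and GAPDHP1 82.4%. EEF1A1P22, at 92.9% identity and 90.5% own sequence, still had 60 counts. Likeness to the parent and count did not always go together. HNRNPA1P7 and EEF1A1P6, singled out after their values were seen, had only 23.7% and 22.3% own sequence and 27 and 34 counts, and HMGN2P5, at 99.6% identity and with no 50-base word of its own, had 4 counts.

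**Figure D2:**
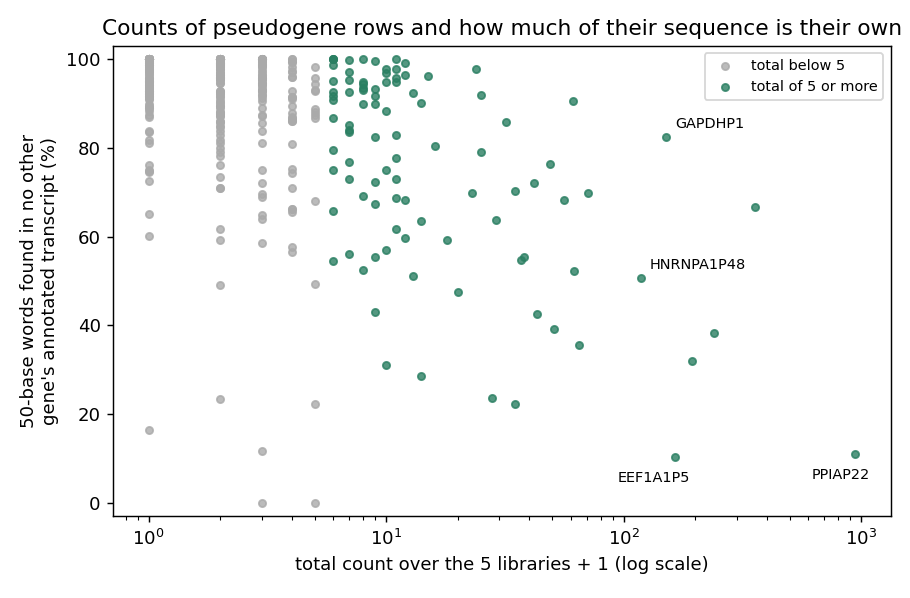
Total count plus 1 (log axis) against the percentage of 50-base words found in no other gene's annotated transcript, 1 point per row (green, the members; grey, rows with the same stems and a total below 5). Points spread downward with rising count, to 11.1% for PPIAP22, while GAPDHP1 stands at 82.4%.

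The members were compared between batches with edgeR's quasi-likelihood test over all 9215 genes that passed a filter on low counts, with a Benjamini-Hochberg adjusted p under 0.05 as a call. Only 16 of the 97 members passed that filter. Of these, 2 were higher in batch B (HNRNPA1P48 and GAPDHP1), 1 was lower (PPIAP22) and 13 were not called. Over all tested genes, 4.20% were called, 2.15% higher and 2.05% lower. The 81 members below the filter carry no call either way. The median log2 fold change was 0.04 over the 16 and 0.00 over all tested genes. All batch B libraries lay above both batch A libraries for 4 of the 16 rows and below for 4, against 13.5% and 17.8% of all tested genes. With so few rows, neither share was tested against the background. The filter asked for a minimum level in only 2 libraries, the size of the smaller batch, so a row could pass through a single batch. EEF1B2P3 reached that level in batch A alone and COX7CP1 in batch B alone. The counts of separated rows are therefore a description only.

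Among copies of protein-folding genes, PPIAP22 was lower in batch B. Its parent PPIA encodes cyclophilin A, a prolyl isomerase and the target of cyclosporin. PPIAP22 had 294 and 336 batch A counts and 57, 120 and 136 batch B counts, or 428 and 418 CPM against 152, 208 and 198 CPM. Every batch B library was below every batch A library, and the values within each batch lay closer to each other than to the other batch. It was 2.18-fold lower in batch B (log2 fold change -1.12, SE 0.12, edgeR adjusted p = 3.47e-19). PPIA itself had 932 and 1018 batch A counts and 482, 670 and 803 batch B counts, with a log2 fold change of -0.10 (SE 0.11, edgeR adjusted p = 0.753). For each 100 counts of PPIA there were 31.5 and 33.0 counts of PPIAP22 in the batch A libraries, against 11.8, 17.9 and 16.9. The other 4 members named for PPIA had 5 to 8 counts each. HSPD1P1, a copy of the mitochondrial chaperonin gene HSPD1, had 8 and 14 batch A counts and 6, 5 and 8 batch B counts (log2 fold change -0.31, SE 0.52), and the batches overlapped. HSPA8P1, named for the constitutive HSP70 chaperone, and HSPE1P4, named for the co-chaperonin, had 8 and 7 counts in all and did not pass the filter.

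The RNA-binding families had 1 tested row, and it was higher in batch B. HNRNPA1 encodes an abundant splicing regulator that shuttles between nucleus and cytoplasm, and 45 rows bear its name, of which 2 were members. HNRNPA1P48 had 9 and 13 batch A counts and 19, 35 and 41 batch B counts, or 13.1 and 16.2 CPM against 50.8, 60.8 and 59.8 CPM. Even batch B library 1, with the lowest depth of all, had more counts than either batch A library. The row was 3.95-fold higher in batch B (log2 fold change 1.98, SE 0.33, edgeR adjusted p = 7.02e-07). HNRNPA1 had 499 and 617 batch A counts and 354, 480 and 585 batch B counts (log2 fold change 0.25, SE 0.11, edgeR adjusted p = 0.212), with all batch B libraries above batch A in CPM. Per 100 counts of HNRNPA1 the row had 1.80 and 2.11 counts in the batch A libraries, against 5.37, 7.29 and 7.01. HNRNPA1P7, the other member, had 8 and 10 batch A counts and 3, 2 and 4 batch B counts and was not tested. Thinning, a random draw of counts that brings each library down to the smallest, gave a log2 fold change of 1.53 for HNRNPA1P48, still a call (edgeR adjusted p = 0.0228).

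GAPDHP1, a copy of a glycolytic gene, was the other row called higher. GAPDH, the glycolytic dehydrogenase, had 37 rows of copies, 13 of them members with 5 to 150 counts. GAPDHP1 had 20 and 27 batch A counts and 16, 44 and 43 batch B counts, or 29.1 and 33.6 CPM against 42.8, 76.5 and 62.8 CPM. It was 2.02-fold higher in batch B (log2 fold change 1.01, SE 0.27, edgeR adjusted p = 0.00756), and batch B library 1 lay nearer to batch A than the other batch B libraries did. It was no longer called when library 2 of batch A was left out (edgeR adjusted p = 0.0997), nor when library 3 of batch A (0.0597) or library 2 of batch B (0.145) was, nor after thinning (0.0971) or with DESeq2 (adjusted p = 0.413). GAPDH had 1218 and 1319 batch A counts and 758, 1064 and 1170 batch B counts, with a log2 fold change of 0.15 (SE 0.12). TPI1P1, a copy of triose phosphate isomerase, had 15 and 13 counts against 9, 15 and 9, and overlapped between batches. PGAM1, the phosphoglycerate mutase, was the parent gene with the largest difference, at 149 and 181 counts against 32, 63 and 86 (log2 fold change -0.98, SE 0.14, edgeR adjusted p = 2.38e-09), and neither of the 2 rows named as its copies reached the threshold of a member.

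**Figure D3:**
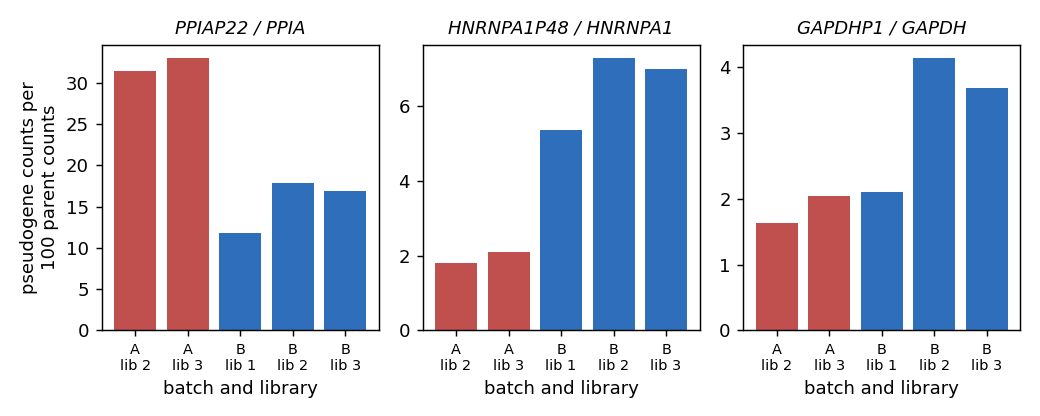
Counts of PPIAP22, HNRNPA1P48 and GAPDHP1 per 100 counts of their parent gene, 1 bar per library (red, batch A; blue, batch B), with axes that start at 0. The ratio to PPIA is 31.5 and 33.0 in batch A and 11.8 to 17.9 in batch B, that to HNRNPA1 rises from 1.80 and 2.11 to 5.37 to 7.29, and GAPDHP1 in batch B library 1 (2.11) is close to batch A (1.64 and 2.05).

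Copies of chromatin and nucleolar genes were among the most abundant, and none of them was called. NPM1 encodes nucleophosmin, a nucleolar chaperone of ribosome assembly. NPM1P27 had 56 and 54 batch A counts and 18, 35 and 30 batch B counts (log2 fold change -0.52, SE 0.23, edgeR adjusted p = 0.204). NPM1P6 had 24 and 19 against 7, 10 and 10 (-0.78, SE 0.40, edgeR adjusted p = 0.31). For both, all batch B libraries were below batch A in CPM, while NPM1 had a log2 fold change of 0.02 (SE 0.12). NPM1P27 overlaps FAM172A on the same strand. FAM172A had 10 and 14 batch A counts and 1, 15 and 14 batch B counts. Reads of either could fall on the other row. NPM1P6 overlaps CLVS1 on the same strand, and CLVS1 had no row. EEF1B2P3, COX7CP1 and HSPD1P1, also tested, overlap POLA1, FNDC3A and CDH12 in that order on the opposite strand. The use of strand in counting is not given.

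PTMA encodes prothymosin alpha, an acidic nuclear protein. PTMAP5, annotated as transcribed, had 93 and 94 batch A counts and 28, 68 and 74 batch B counts (log2 fold change -0.25, SE 0.17), and batch B library 2 overlapped batch A in CPM. HMGB1 encodes a DNA-bending chromatin protein, and HMGB1P5, also annotated as transcribed, had 50 and 63 counts against 26, 45 and 55. It stood at 72.8 and 78.4 CPM against 69.6, 78.2 and 80.3 CPM, and the batches overlapped (log2 fold change 0.05, SE 0.20). HMGN2, a nucleosome-binding protein, was the other parent gene called, at 378 and 422 counts against 128, 235 and 325 (log2 fold change -0.34, SE 0.11, edgeR adjusted p = 0.036). It was not called when either library of batch A, or library 1 or 2 of batch B, was left out (edgeR adjusted p = 0.122 to 0.366), nor after thinning (0.233) or with DESeq2 (adjusted p = 0.52). Its 3 copies among the members had 7 to 17 counts and were not tested.

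Copies of translation factor genes included the family with the most members. EEF1A1, the elongation factor that brings tRNA to the ribosome, had 14 members with 5 to 164 counts each. EEF1A1P5 had 32 and 37 batch A counts and 18, 34 and 43 batch B counts (log2 fold change 0.35, SE 0.25, edgeR adjusted p = 0.526), with all batch B libraries above batch A in CPM. EEF1A1P22 had 15 and 14 against 3, 18 and 10, and EEF1A1P9 had 11 and 10 against 9, 8 and 10. Both overlapped between the batches, and EEF1A1 had a log2 fold change of 0.01 (SE 0.12). EEF1B2P3, a copy of the guanine-exchange subunit of the same complex, had 19 and 15 batch A counts and 3, 4 and 9 batch B counts. Its fitted log2 fold change of -1.20 was the lowest of the 16, but with a standard error of 0.49 it was not called (edgeR adjusted p = 0.157). EEF1B2P3 passed the low-count filter through batch A alone, so that rank is a description only. EEF1B2 had a log2 fold change of -0.23 (SE 0.11, edgeR adjusted p = 0.268).

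The remaining tested members came from the respiratory chain and from iron storage. COX6A1P2, named for a cytochrome c oxidase subunit, had 13 and 12 batch A counts and 7, 11 and 21 batch B counts (log2 fold change 0.51, SE 0.42). COX7CP1 had 7 and 9 against 7, 8 and 11 (0.59, SE 0.52, edgeR adjusted p = 0.64), with all batch B libraries above batch A in CPM. COX7CP1 passed the low-count filter through batch B alone, so that order is a description only. FTLP3, a copy of the ferritin light chain gene, had 16 and 10 against 4, 9 and 16 (0.02, SE 0.44). None of these was called, and a standard error near 0.5 leaves differences of such size undetectable at this depth. FTH1P8, the leading of 9 copies of the ferritin heavy chain gene, had 14 of its 28 counts in batch B library 2 and was not tested. TUBBP5 had 8 and 4 batch A counts and 3, 1 and 3 batch B counts.

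**Figure D4:**
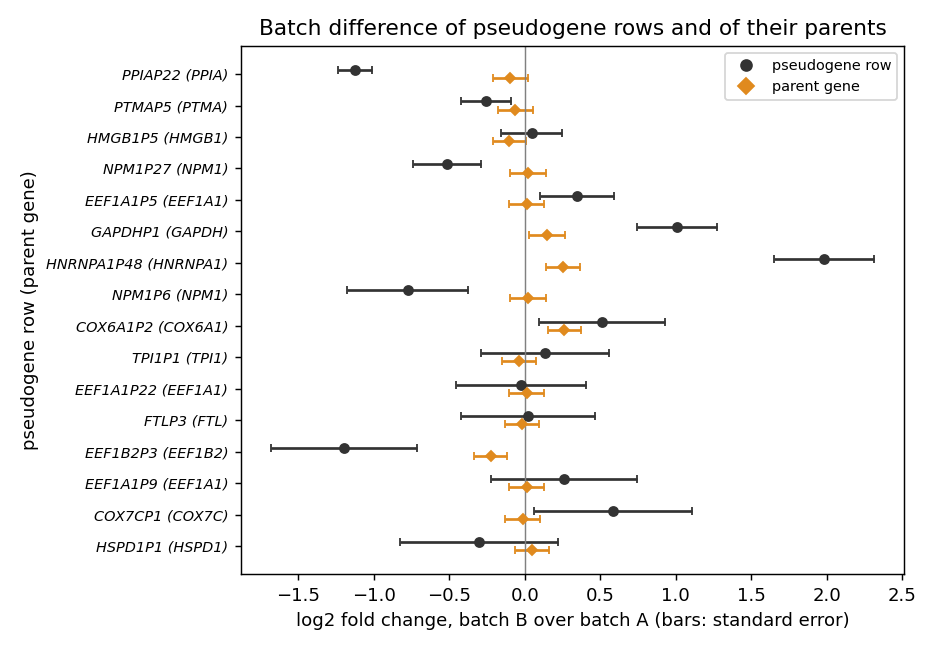
Log2 fold change of batch B over batch A for the 16 tested pseudogene rows (black circles) and their parent genes (orange diamonds), with standard errors as bars. The parents drawn lie between -0.23 and 0.26, while the pseudogene rows run from -1.20 for EEF1B2P3 to 1.98 for HNRNPA1P48, with wider bars.

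The parent genes, 43 with a row and all tested, served as the other genes of these families. None was called higher in batch B and 2 of the 43 were called lower, PGAM1 and HMGN2. For comparison, 2.15% of all tested genes were called higher and 2.05% lower. Whether the parents depart from these shares was not tested, so their few calls are no sign of stability. On the log2 scale, the fold changes of the parents had their median at 0.02. The parents held 3.88% and 3.68% of the gene counts of batch A, against 3.93%, 3.73% and 3.65%. The fold changes of pseudogenes and parents are given side by side, and the difference between them was not tested. Counts on pseudogene rows were not in proportion to those of the parents. Over all libraries there were 24.8 member counts per 100 parent counts for PPIA, 13.7 for HMGB1, 10.6 for EEF1A1, 8.88 for PTMA and 6.98 for NPM1, against 0.149 for ACTB and 0.234 for HSPA8. ACTG1, the second cytoplasmic actin, had 5366 counts and no member. KRT8, at 146 counts, had 17 counts on its copies, or 11.6 per 100.

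The families differed in how their counts were spread over copies. For PPIA and PTMA a single row held 97.3% and 98.3% of the member counts, whereas the leading row held 55.3% for NPM1, 52.4% for GAPDH, 35.9% for EEF1A1 and 27.2% for FTH1. Summed over its 14 members, the EEF1A1 family had 9.30 and 9.24 counts per 100 of EEF1A1 in the batch A libraries, against 8.50, 11.7 and 13.7. The 10 members of the NPM1 family had 8.96 and 7.72 per 100 of NPM1, against 4.93, 6.55 and 5.59. The NPM1 ratio was thus lower in every batch B library, while that of EEF1A1 overlapped between the batches. The FTH1 family, at 2.31 and 3.82 against 2.28, 6.97 and 3.63, also overlapped, and its highest value came from the library with 14 counts of FTH1P8. The ratios of PPIA, EEF1B2, LDHB and HSPD1 were, like that of NPM1, lower in every batch B library. Those of HNRNPA1, HNRNPA3, HMGB1 and COX7C were higher in every batch B library. Such separation was not set against a background share, so it is no result about the NPM1 family. EEF1A1P12, singled out for its spread, had 17 of its 34 counts in batch B library 3. The keratin genes KRT8 and KRT18 gave 18 and 19 rows of copies, of which 2 and 1 reached the threshold.

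As a share of all gene counts, the members took 0.128% and 0.121% in the libraries of batch A, against 0.0864%, 0.114% and 0.108% (0.125% ± 0.00505, SD, n = 2, and 0.103% ± 0.0144, SD, n = 3). All batch B libraries were below batch A, and batch B library 1 was the lowest. The difference of -0.0221 percentage points rested on PPIAP22. Without that row the shares were 0.0825% ± 0.00436 and 0.0840% ± 0.0114, and the difference was 0.00152 points. Leaving out that row was decided after its values were known. The closest comparable set, 214 rows chosen by symbols of the form of ribosomal protein gene copies, took 0.464% and 0.486% against 0.399%, 0.486% and 0.516%. These rows include RPS19BP1, which fits the pattern but encodes a binding partner of a ribosomal protein and is no copy. Without it, left out after the data were seen, the shares were 0.444% and 0.468% against 0.380%, 0.462% and 0.495%. Of the 214 rows, 68 passed the filter, with 6 called higher and 7 lower, and RPS19BP1 was not called. Of the 16 tested members, 2 were called higher and 1 lower, and over all tested genes 4.20% were called. The counts of calls in the pseudogene groups were not tested against each other or against that share.

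At the low end, 5 members had counts in a single batch, and they were singled out after their values were seen. HMGN2P6 had 2 and 6 batch A counts, HSPD1P5 had 4 and 3, GAPDHP70 had 1 and 5 and GAPDHP32 had 2 and 3, and all 4 had none in batch B. NPM1P32 had no batch A count and 0, 3 and 2 batch B counts. Each reached the total of 5 through 1 batch alone, so these values are a description, with no fold or test. How many of all gene rows had counts in a single batch was not counted, so the 5 are no result about the members. None of the 5 passed the filter on low counts. In an edgeR fit without that filter, the same 3 rows as before were called among all 97.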

How the data were processed

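The data were whole-number counts per gene symbol and library from 5 libraries of HEK293 cells, which the authors deposited unnormalized. The submitters' processing notes name cutadapt 1.2.1, STAR 2.4.0a and the builds hg19 and GRCh37. Not given in the sources used here are the gene annotation, the use of strand and of molecular identifiers, and the counting of reads with several matches. Counts of reads that were not collapsed have more error than counting limits show.

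The batch of a column was read from the start of its name, which matches the titles, and all columns were used. The 52 ERCC spike-in rows were left out. edgeR 4.0.16 in R 4.3.3 was run on all genes with TMM scaling, filterByExpr and batch as the only term (9215 genes). Its test was tested on simulated data with known changes. The common biological coefficient of variation was 6.5%. A standard error is the log2 fold change over the root of its F statistic. CPM uses gene counts as the total. Depth was 373687 to 803168 gene counts per library.

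Members and lists were chosen with earlier results of these data known. Named members are those called, the 12 of highest mean CPM, the leading member of each family of 4 or more, and the 3 largest fitted rises and falls. The other tested members, and other rows, were named after their values were seen. The parent of a member is the gene its symbol names. CKS1B, the parent of CKS1BP6 and CKS1BP7, had no row in the count table, so no parent value is given for these members. Transcripts of GENCODE 29 were matched by symbol and aligned to the parent's principal transcript with blastn 2.17.0, plus strand. Words of 50 bases are compared with annotated transcripts only, so copies elsewhere in the genome are not seen. No coordinates are given because the builds differ. Alternatives were other scalings, DESeq2 1.42.0, limma-voom 3.58.1, other filters, thinning in a single seeded draw and leaving out each library. Some items are not reported here.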

Additional observations from a re-analysis of the deposited data

How the results depend on the processing

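Over 12 alternatives, PPIAP22 and HNRNPA1P48 were called in all, with log2 fold changes from -1.20 to -1.03 and from 1.53 to 2.13. GAPDHP1 was called in 7, with log2 fold changes from 0.83 to 1.14. The number of members called was 3 or 2 throughout. The difference in share of counts was -0.0276 to -0.0140 points when a library was left out, and 0.00152 without PPIAP22, where it turned. The number of all genes called was 387, against 138, 152 and 202 without batch A library 2, batch A library 3 and batch B library 2, 164 after thinning, 259 without a filter and 41 with the DESeq2 Wald test. Several rows and parents that were not called changed sign near 0, and the cause was not tested. Leaving out libraries gave log2 fold changes of -0.649 to 0.208 for EEF1A1P22, -0.399 to 0.532 for FTLP3, -0.108 to 0.467 for TPI1P1, -0.109 to 0.095 for COX7C, -0.044 to 0.081 for EEF1A1, -0.138 to 0.119 for FTH1, -0.078 to 0.054 for FTL, -0.071 to 0.086 for NPM1 and -0.087 to 0.030 for TPI1. With library totals EEF1A1 was at -0.015 and NPM1 at -0.009, and with no filter at -0.012 and -0.006. After thinning HMGB1P5 was at -0.058 and FTH1 at 0.098. FTLP3 was at -0.032 with DESeq2, and COX7C at 0.001 with a mean count of at least 20. No paired analysis was possible because the columns do not carry the replicate numbers of the labels. The planned change of the alpha-tubulin parent gave no value, as no pseudogene row bears that stem, although the parents TUBA1A, TUBA1B and TUBA1C were tested. A lone batch A library was taken to have the spread of the batch B libraries. DESeq2 gave no adjusted p to 9 of the 16 tested members.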
